A study of Mus musculus with 4 samples.

Results

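Messenger RNA levels of 10 inflammatory mediators were read in brown adipose tissue: the cytokines Tnf, Il1b and Il6, the chemokines Ccl2, Ccl5, Ccl7, Cxcl1 and Cxcl10, the prostaglandin-forming enzyme Ptgs2 and the acute phase protein Saa3. They were taken by gene symbol from 52022 annotated genes, of which 26741 had at least 1 count in some library. All 10 matched 1 protein-coding gene each. Of the 10, 7 had enough counts for a test across genes, and Tnf, Il6 and Ptgs2 did not.

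Inflammatory cytokines are small secreted proteins that alarm neighbouring cells, and chemokines are secreted proteins that draw white blood cells along a gradient. Most of these genes are kept nearly silent at rest and are switched on by the transcription factor NF-kappaB after signals from Toll-like, TNF or interleukin-1 receptors, while Cxcl10 also answers to interferons. In obese white fat they are known for accompanying the arrival of macrophages, and brown fat usually carries less of this inflammation.

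The groups were 2 libraries from mice whose thermogenic adipocytes lack ATF4 (KO 1 and KO 2) with 2 further libraries, WT 1 and WT 2, from wild-type mice. All were males fed ad libitum, on a high fat diet (60% fat) for 12 weeks. ATF4 is a transcription factor of the integrated stress response. No source used here names the promoter behind the deletion, the strain or the age, or says whether each library is a separate animal, so a p-value covers only the variation among these 4 libraries, which may be technical. Since ATF4 was targeted in adipocytes and the tissue also holds macrophages, fibroblasts and vessel cells, a level read here can come from cells in which Atf4 was never targeted. In such bulk tissue, fewer cells of a type and less RNA per cell cannot be told apart.

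Total estimated counts were 25985367 and 30405113 in KO 1 and KO 2 and 32714456 and 34813870 in WT 1 and WT 2. The library names start with S1 (KO 1 and WT 2) or S2 (KO 2 and WT 1), so that each prefix holds 1 library of each genotype. No label explains the prefix. Atf4 itself was at 24.95 and 24.5 CPM (counts scaled to library size) in KO 1 and KO 2, against 29.2 CPM in the library labelled WT 1 and 107 CPM in WT 2, so by Atf4 the library labelled WT 1 is hard to distinguish from KO. For this reason the changes of Il1b, Ccl2, Ccl7, Cxcl1 and Saa3 and the median of the mediators are also given without it. The brown adipocyte marker Ucp1 was high in every library (7018 and 5984 CPM in KO, 5558 and 6290 CPM in WT). Markers of skeletal muscle summed to 2627 and 2469 CPM in KO 1 and KO 2, against 1.43 and 1.496 CPM in WT 1 and WT 2, and its part in the values below was not tested.

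All the mediators were low. On the length-corrected TPM scale, the mean level over the 4 libraries was 4.52 for Ccl2, 2.67 for Ccl7, 1.66 for Saa3, 1.32 for Ccl5, 0.932 for Cxcl10, 0.764 for Il1b, 0.577 for Cxcl1, 0.182 for Tnf, 0.0552 for Il6 and 0.0114 for Ptgs2. Only the level of Ccl2 reached the middle of the tested genes, of which 50.4% had a lower mean TPM. From Ccl2 down to Cxcl1 each gene overlaps the next in TPM across libraries, as do Il6 and Ptgs2, so these neighbouring ranks are not firm. Within each library Ccl2 was above Ccl7, and Ccl5 was above Cxcl10. A library with 0 counts of a gene allows up to 3 counts, which is 0.117 CPM in KO 1, 0.103 CPM in KO 2, 0.0955 CPM in WT 1 and 0.0816 CPM in WT 2. These limits, like all count intervals below, cover counting error only.

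**Figure D1:**
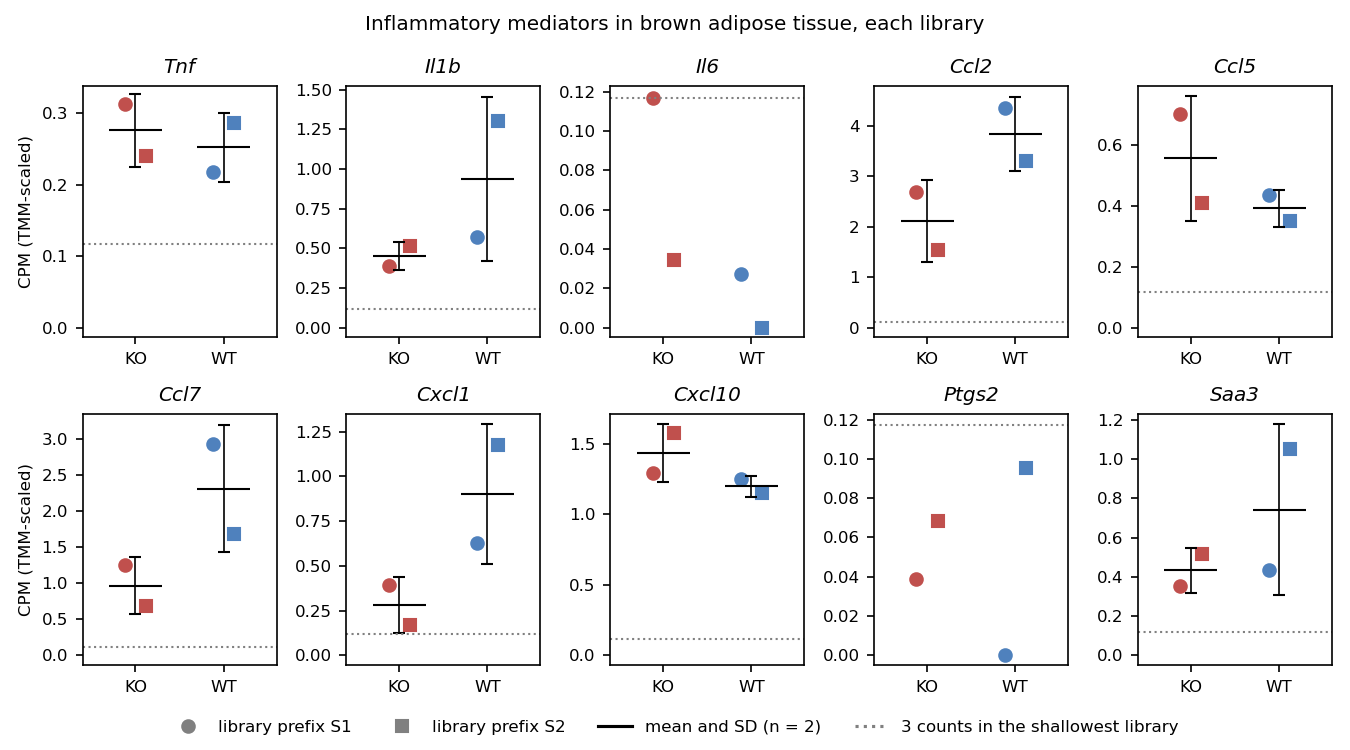
Level of each mediator in each library in CPM scaled by TMM, with KO left of WT and the symbol giving the library prefix. Horizontal lines and bars are the mean and SD of 2 libraries (left out for Il6 and Ptgs2), and the dotted line is the level of 3 counts in the shallowest library, 0.117 CPM. Both KO libraries lie below both WT libraries for Il1b, Ccl2, Ccl7 and Cxcl1, and Il6 and Ptgs2 do not rise above the dotted line in any library.

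Among the cytokines, Tnf was detected at the same low level in both genotypes, Il1b was lower in KO without passing the test, and Il6 was at the limit of detection. Tnf, the cytokine that sets off much of the inflammatory cascade (chromosome 17, 35199381 to 35202007, minus strand, GRCm38), had 8 and 7 counts in KO 1 and KO 2 and 9 and 8 counts in WT 1 and WT 2. The genotypes overlapped. Over both libraries of each genotype the KO over WT ratio was 1.10, with an exact 95% interval of 0.510 to 2.34, an interval that holds both no difference and a 2-fold rise. Tnf fell below the count filter and had no test in the fit, while a fit without the filter gave a log2 fold change of 0.13 (SE 0.79, edgeR adjusted p = 0.9998).

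Il1b encodes the precursor of interleukin-1 beta, which is cut to its active form in the inflammasome (chromosome 2, 129364570 to 129371139, minus strand). It was at 0.390 and 0.514 CPM in KO 1 and KO 2, against 1.31 and 0.571 CPM in WT 1 and WT 2. The KO libraries both lay under the WT libraries, but WT 2 was close to KO 2 and most of the gap lay in the library labelled WT 1. The log2 fold change was -1.03 (SE 0.56), which missed the threshold of the quasi-likelihood test in edgeR (unadjusted p = 0.117, adjusted p = 0.9999). Without the library labelled WT 1 it was -0.33, and without WT 2 it was -1.52. Within the prefixes the ratio of KO to WT was 0.684 in S1 (exact 95% interval 0.287 to 1.52) and 0.394 in S2 (0.202 to 0.726).

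Il6, a cytokine that acts on liver, fat and immune cells through the receptor subunit Il6st (chromosome 5, 30013114 to 30019981, plus strand), had 3 and 1 counts in KO 1 and KO 2 and 0 and 1 counts in WT 1 and WT 2. The summed ratio of 4.98 had an exact interval of 0.492 to 245, so no direction can be read. Its receptor genes, by contrast, were well measured. Il6ra, the ligand-binding subunit, was at 8.71 and 12.5 CPM in KO 1 and KO 2, against 14.5 and 12.6 CPM in WT 1 and WT 2, and its log2 fold change, -0.35 (SE 0.23), missed the threshold (edgeR adjusted p = 0.9999) and was -0.11 without KO 1.

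Of the CC chemokines, Ccl2 and Ccl7 were lower in both KO libraries than in both WT libraries, and Ccl5 was not. Ccl2, also called MCP-1, draws Ccr2-bearing monocytes into tissue (chromosome 11, 82035571 to 82037453, plus strand). Its counts were 69 and 45 in KO 1 and KO 2, against 104 and 160 in WT 1 and WT 2, the most of any of the mediators. This was 2.12 ± 0.815 CPM in KO and 3.83 ± 0.736 CPM in WT (SD, n = 2 each). The groups did not overlap, although KO 1 at 2.69 CPM was near WT 1 at 3.31 CPM. Its fitted log2 change, -0.86 (SE 0.37), missed the threshold in edgeR (unadjusted p = 0.0621, adjusted p = 0.9999), nor in the prefix block fit (-0.89, SE 0.29, adjusted p = 0.274). The ratio of KO to WT was 0.619 within S1 (exact 95% interval 0.460 to 0.826) and 0.466 within S2 (0.321 to 0.666), so that both pairs of libraries differed beyond counting error. With 1 library left out the log2 fold change ranged from -1.31 without KO 1 to -0.51 without KO 2, and it was -1.04 without the library labelled WT 1.

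Ccl7 (MCP-3), which binds Ccr2 as well, lies 8258 bases downstream of Ccl2 on the same strand (82045712 to 82047525). It was at 1.25 and 0.685 CPM in KO 1 and KO 2, against 1.69 and 2.94 CPM in WT 1 and WT 2. The groups did not overlap, and the 2 pairs gave nearly the same ratio, 0.425 in S1 (exact 95% interval 0.277 to 0.636) and 0.406 in S2 (0.230 to 0.691). The log2 fold change was -1.26 (SE 0.47, unadjusted p = 0.0377, edgeR adjusted p = 0.9999). In the prefix block fit it was -1.26 (SE 0.35, unadjusted p = 0.00435, adjusted p = 0.146), the smallest adjusted p of the mediators in that fit, and it did not pass. With 1 library left out it ranged from -1.75 without KO 1 to -0.81 without WT 2, and it was -1.60 without the library labelled WT 1.

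The next gene of this cluster overlapped between genotypes. Ccl11 (eotaxin), chosen after its values were seen, starts 10297 bases beyond Ccl7 and was at 9.49 and 7.36 CPM in KO 1 and KO 2, against 9.04 and 9.11 CPM in WT 1 and WT 2. Its log2 fold change was -0.11 (SE 0.20), and 0.06 without KO 2. Ccl12 and Ccl8, farther along, had at most 8 and 23 counts in any library and fell below the filter. A test of the difference between neighbours was not run.

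Ccl5 (RANTES), a chemokine made by T cells, natural killer cells and macrophages (chromosome 11, 83525778 to 83530518, minus strand), had 18 and 12 counts in KO 1 and KO 2 and 11 and 16 counts in WT 1 and WT 2. The genotypes overlapped. The log2 fold change was 0.49 (SE 0.51, edgeR adjusted p = 0.9999), with 0.06 without KO 1 and 0.83 without KO 2. T and natural killer cell markers were also near the limit, with a sum over 11 genes of 3.87 and 2.33 CPM in KO 1 and KO 2 and 1.53 and 1.99 CPM in WT 1 and WT 2, and their part in the level of Ccl5 was not tested.

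Of the CXC chemokines, Cxcl1 was lower in KO and Cxcl10 was level. Cxcl1 (KC), a chemokine that draws neutrophils through the receptor Cxcr2 (chromosome 5, 90891241 to 90893115, plus strand), had 10 and 5 counts in KO 1 and KO 2, against 37 and 23 counts in WT 1 and WT 2. The groups did not overlap. It was over the filter's cutoff of 0.320 CPM in both WT libraries but in KO only in KO 1, so it entered the test through the group where it is high. Its log2 fold change was -1.68 (SE 0.62, unadjusted p = 0.0358), which did not pass edgeR over all genes (adjusted p = 0.9999) or with the prefix as a block (adjusted p = 0.338). The pairs differed in size, with a KO over WT ratio of 0.624 in S1 (exact 95% interval 0.265 to 1.36) and 0.145 in S2 (0.0446 to 0.371). Without the library labelled WT 1 the log2 fold change was -1.16, without KO 2 it was -1.19 and without KO 1 it was -2.36. Its neighbour in function Cxcl2, below the filter and chosen after its values were seen, had 0 and 4 counts in KO 1 and KO 2 and 16 and 10 counts in WT 1 and WT 2.

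Cxcl10 (IP-10), an interferon-induced chemokine that draws Cxcr3-bearing T cells (chromosome 5, 92346638 to 92348889, minus strand), was at 1.29 and 1.58 CPM in KO 1 and KO 2, against 1.15 and 1.25 CPM in WT 1 and WT 2. The groups did not overlap, but KO 1 and WT 2 lay close together, with 1.29 CPM in KO 1 and 1.25 CPM in WT 2. The log2 fold change was 0.26 (SE 0.34, edgeR adjusted p = 0.9999), and 0.10 without KO 2. Summed over libraries the KO over WT ratio was 1.20 (exact 95% interval 0.869 to 1.65), which holds neither a 2-fold rise nor a 2-fold fall of the sums. The interval was 0.638 to 1.65 within S1 and 0.870 to 2.19 within S2, so for the S2 pair a 2-fold rise lies within counting error. On the deposited TPM values the direction turned, with a difference of -0.0028 on log2(TPM + 1). Kallisto placed 54.4% and 69.0% of the Cxcl10 counts of KO 1 and KO 2 and 61.8% and 47.5% of those of WT 1 and WT 2 on a long transcript with a retained intron (ENSMUST00000201176, 2230 bases). The protein-coding transcripts held 15.1 and 14.3 estimated counts in KO 1 and KO 2, against 13.8 and 24.2 in WT 1 and WT 2.

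A retained-intron model also took part of the Cxcl1 counts. Its share was 29.5% for KO 1 and 0% for KO 2, against 49.4% for WT 1 and 52.1% for WT 2. On 10 and 5 counts in KO these shares are coarse, and the protein-coding transcript of Cxcl1 alone held 7.05 and 5 estimated counts in KO 1 and KO 2, against 18.7 and 11.0 in WT 1 and WT 2. Before scaling to library size, both forms were thus lower in both KO libraries. The scaled library size was 25610800 in KO 1 and 36764300 in WT 2, so after scaling KO 1 and WT 2 lie closer together than these counts. A test of either form alone was not run.

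The promoters of Cxcl1, Cxcl10 and the barely detected Il6 are shown because each carries the NF-kappaB consensus. The window runs from 250 bases before to 50 bases after the start site. Whether the changes of Cxcl1 and Cxcl10 differ from each other was not tested. The sequences are those of RefSeq on GRCm38.p6, in the direction of the gene, and capitals mark matches to the NF-kappaB consensus on either strand. In Cxcl1 (chr5:90890995-90891294, plus strand) the capitals are a match on each strand, overlapping by all but 1 base. Cxcl10 (chr5:92348840-92349139, minus strand) has 2 separate matches, and Il6 (chr5:30012864-30013163, plus strand) has 1.
Cxcl1: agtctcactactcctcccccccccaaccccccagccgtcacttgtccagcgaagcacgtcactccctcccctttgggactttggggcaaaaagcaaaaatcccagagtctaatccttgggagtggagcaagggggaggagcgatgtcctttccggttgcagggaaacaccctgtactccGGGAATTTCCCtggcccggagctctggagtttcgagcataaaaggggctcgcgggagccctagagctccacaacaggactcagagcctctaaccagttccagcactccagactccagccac
Cxcl10: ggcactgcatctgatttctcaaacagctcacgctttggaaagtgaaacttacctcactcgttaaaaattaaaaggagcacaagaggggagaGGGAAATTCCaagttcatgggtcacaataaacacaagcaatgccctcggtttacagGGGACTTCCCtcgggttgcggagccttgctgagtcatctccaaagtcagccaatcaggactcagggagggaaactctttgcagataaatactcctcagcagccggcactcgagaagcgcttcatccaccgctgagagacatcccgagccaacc
Il6: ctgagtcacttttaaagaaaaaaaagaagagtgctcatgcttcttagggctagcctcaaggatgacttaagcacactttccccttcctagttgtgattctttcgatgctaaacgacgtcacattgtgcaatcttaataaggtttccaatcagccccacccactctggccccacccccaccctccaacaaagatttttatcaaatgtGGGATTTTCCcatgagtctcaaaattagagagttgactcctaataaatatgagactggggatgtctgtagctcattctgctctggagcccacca

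RefSeq windows were at hand for 7 of the 10 mediators (Tnf, Il1b, Il6, Cxcl1, Cxcl10, Ptgs2 and Saa3), and each motif was searched on both strands in these and in all 32851 windows. The NF-kappaB consensus was in 3 of the 7, against 4.51% of all windows. The AP-1 motif TGANTCA was in 2 of the 7 (Il6 and Cxcl10), against 7.81% of all windows, and does not overlap the capitals. The interferon-stimulated response element was in Cxcl10, 213 bases before the start site, and in Saa3, against 3.44% of all windows. The C/EBP-ATF response element TGATGNAA, a form of the site that ATF4 binds with its partners, was in 0 of the 7, against 3.97% of all windows. A match describes the letters of a window and does not show that a factor binds there.

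**Figure D2:**
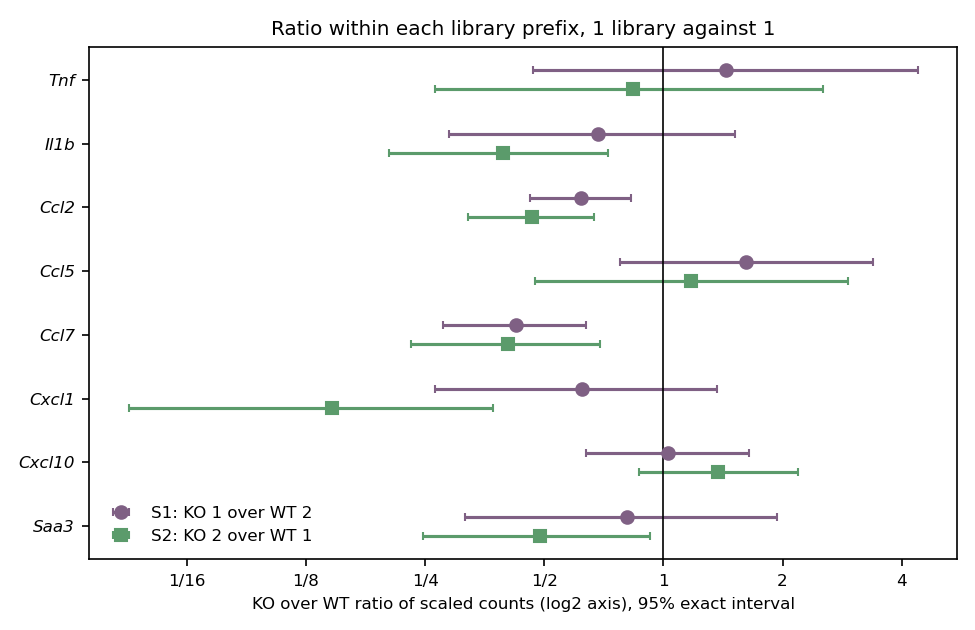
KO over WT ratio of TMM-scaled counts for 8 mediators within each library prefix (circles S1, KO 1 over WT 2; squares S2, KO 2 over WT 1), on a log2 axis with exact 95% intervals that cover counting error only. The intervals of Ccl2 and Ccl7 lie below 1 in both prefixes, those of Il1b, Cxcl1 and Saa3 in S2 alone, and those of Tnf, Ccl5 and Cxcl10 span 1 in both. Il6 and Ptgs2, with 0 counts in a WT library each, are not drawn.

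Ptgs2 and Saa3 stand at the effector end of inflammation. Ptgs2 (COX-2), the inducible enzyme that starts prostaglandin synthesis (chromosome 1, 150100031 to 150108227, plus strand), had 1 and 2 counts in KO 1 and KO 2 and 3 and 0 counts in WT 1 and WT 2, and no direction can be read (ratio 1.24, exact 95% interval 0.167 to 9.29). Its constitutive relative Ptgs1, chosen after its values were seen, was at 3.05 and 2.81 CPM in KO and 3.47 and 3.35 CPM in WT. Saa3, an acute phase protein made by macrophages and adipocytes under inflammatory stimuli (chromosome 7, 46711998 to 46715700, minus strand), was at 0.351 and 0.514 CPM in KO 1 and KO 2, against 1.05 and 0.435 CPM in WT 1 and WT 2.

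In the gene sum the genotypes overlapped for Saa3, and its log2 fold change of -0.76 (SE 0.59, edgeR adjusted p = 0.9999) rested on the library labelled WT 1, as it was -0.0026 without it. Saa3 belongs to a family with similar copies, and it was the 1 mediator whose gene sum was not a whole number of reads (33.4 estimated counts in WT 1 and 16.2 in WT 2), so its value is less certain. For the other 9 mediators the gene sums were whole in all 4 libraries, to within 0.01 counts, so no fractional split with another gene shows in them. Whether their reads also match other genes was not examined.

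Over the set, 0 of the 7 tested mediators passed in edgeR, against 0.780% of the 15643 genes tested (0.0128% called lower in KO). In the prefix block fit 0 passed too, against 2.05% of genes (0.473% lower). At an unadjusted p under 0.05 there were 2 (Ccl7 and Cxcl1, both lower in KO), against 4.02% of genes (1.50% lower), and DESeq2 and limma-voom also called 0. For 4 of the 7, KO lay below WT with no overlap, against 13.1% of genes, and above them for 1 (Cxcl10), against 13.2%. KO was lower than WT within both prefixes for 5 of the 7, against 26.5% of genes. The median log2 fold change of the 7 was -0.86, and 0.0020 over all genes tested. Without the library labelled WT 1 the median of the 7 was -0.33. The 3 mediators under the filter are missing from these counts, and Cxcl1 is in them although it met the cutoff in both libraries of WT alone. The counts describe the 7 genes and support nothing beyond them. With 2 libraries a genotype an exact two-sided permutation test of 1 gene cannot give a p below 0.333.

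**Figure D3:**
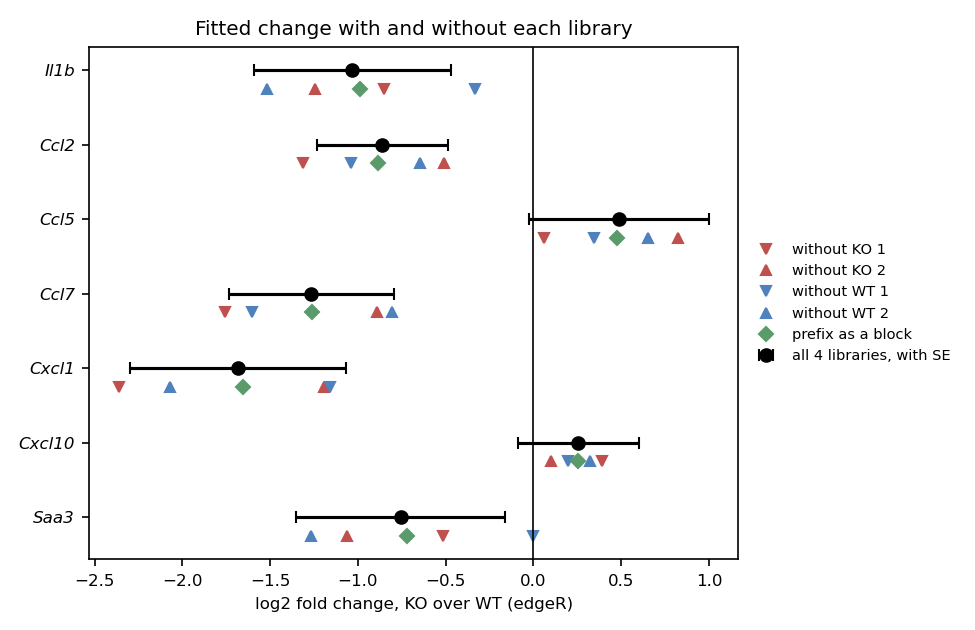
Fitted log2 fold change of KO over WT for the 7 tested mediators, from all 4 libraries (black circles with SE), with each library left out (triangles) and with the prefix as a block (diamonds). Il1b, Ccl2, Ccl7 and Cxcl1 stay below 0 whichever library is left out, and Saa3 reaches -0.0026 without the library labelled WT 1.

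Other ligands of the same families did not share a direction. Of 37 further cytokines and chemokines 17 could be tested, and 0 passed in either direction with or without the prefix as a block. The median log2 fold change was 0.01, and 1 had an unadjusted p under 0.05, against 4.02% of all genes tested. The 1 gene was Ccl9, a macrophage chemokine of mice, at 5.82 and 9.52 CPM in KO 1 and KO 2, against 12.2 and 17.7 CPM in WT 1 and WT 2 (log2 fold change -0.96, SE 0.31, edgeR adjusted p = 0.924). Its neighbour Ccl6 was at 6.09 and 11.8 CPM in KO 1 and KO 2, against 13.2 and 15.4 CPM in WT 1 and WT 2 (-0.67, SE 0.33, and -0.28 without KO 1). Ifng, the T cell interferon, chosen after its values were seen, had 0 counts in all 4 libraries.

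None of the receptors for these ligands passed. Over 25 receptor and decoy genes, of which 21 were tested, 0 passed, 16 had a negative log2 fold change and the median was -0.25. Ccr2, the receptor for Ccl2 and Ccl7, had the smallest p of the list. It was at 2.38 and 4.45 CPM in KO 1 and KO 2, against 6.97 and 5.005 CPM in WT 1 and WT 2, with a log2 fold change of -0.80 (SE 0.37, unadjusted p = 0.0759, edgeR adjusted p = 0.9999), -0.43 without KO 1 and -0.55 without the library labelled WT 1. Tnfrsf1a, the main TNF receptor and chosen after its values were seen, was at 84.6 and 92.6 CPM in KO and 97.6 and 96.8 CPM in WT.

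The 28 genes of NF-kappaB signalling, all tested, had a median of -0.10 in log2 fold change, with 20 of them negative and 0 past the threshold. The members with the smallest p were feedback genes that NF-kappaB itself switches on and the sensor Tlr4. Nfkbiz, a nuclear cofactor needed for Il6 induction, was at 7.61 and 5.27 CPM in KO 1 and KO 2, against 10.5 and 9.30 CPM in WT 1 and WT 2 (log2 fold change -0.62, SE 0.24, unadjusted p = 0.0446, and -0.38 without KO 2). Tnfaip3 (A20), a ubiquitin-editing brake on the pathway, was at 3.67 and 2.88 CPM in KO, against 4.23 and 5.55 CPM in WT (-0.58, SE 0.28, and -0.37 without WT 2). Tlr4, the receptor for bacterial endotoxin, was at 2.77 and 5.24 CPM in KO 1 and KO 2, against 6.27 and 6.85 CPM in WT 1 and WT 2 (-0.71, SE 0.34, and -0.33 without KO 1). In each of the 3, picked for a small p, the KO libraries lay below the WT libraries. Of the whole list of 28, KO lay below WT with no overlap for 8, against 13.1% of all genes tested. It lay above WT for 2, against 13.2%. None of the 3 passed edgeR over all genes (adjusted p = 0.9999 each).

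The interferon branch showed no common shift. Over 18 interferon-stimulated genes, all of them tested, the median log2 fold change was -0.07, 11 were negative, and 0 had an unadjusted p under 0.05. Irf7, which amplifies the type I response, was at 10.8 and 9.80 CPM in KO and 7.64 and 9.30 CPM in WT (log2 fold change 0.28, SE 0.19, edgeR adjusted p = 0.9999), and its log2 fold change was 0.14 on leaving out WT 1.

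No acute phase or prostaglandin gene passed in the main edgeR test or with the prefix as a block. Serpina3n, described below, did pass in edgeR without a filter and with the replicate number as a block. For comparison, 7768 of the 15643 genes tested had a negative log2 fold change. Of 16 acute phase and IL-6 response genes 13 were tested, with a median log2 fold change of -0.40 and 10 negative. Among them 2 had an unadjusted p under 0.05, against 4.02% of all genes tested, and 0 were past the threshold. Serpina3n, a protease inhibitor raised by inflammation, was at 3.48 and 5.38 CPM in KO 1 and KO 2, against 8.37 and 28.9 CPM in WT 1 and WT 2 (-2.07, SE 0.60, edgeR adjusted p = 0.716, and 0.0684 in the prefix block fit, but 0.00969 in DESeq2). Its gap rested on WT 2, since the log2 fold change was -0.92 without that library, and it was -2.70 and passed once the library labelled WT 1 was left out (adjusted p = 2.93e-05). Socs1, a brake on cytokine receptors, was at 0.156 and 0.137 CPM in KO, against 0.637 and 0.354 CPM in WT (-1.72, SE 0.62, unadjusted p = 0.0331 in edgeR). Its counts were 4 and 4 in KO 1 and KO 2, against 20 and 13 in WT 1 and WT 2. It was over the filter's cutoff of 0.320 CPM in WT alone, so it entered the test through the group where it is high. It is among the 2 genes at an unadjusted p under 0.05. The 11 prostaglandin genes had a median of -0.22 (-0.34 within S1 and -0.0098 within S2), with 8 negative and 0 at an unadjusted p under 0.05. Ptges, which makes prostaglandin E downstream of Ptgs2, was at 2.19 and 2.26 CPM in KO, against 2.74 and 3.84 CPM in WT (-0.56, SE 0.31, and -0.30 without WT 2).

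**Figure D4:**
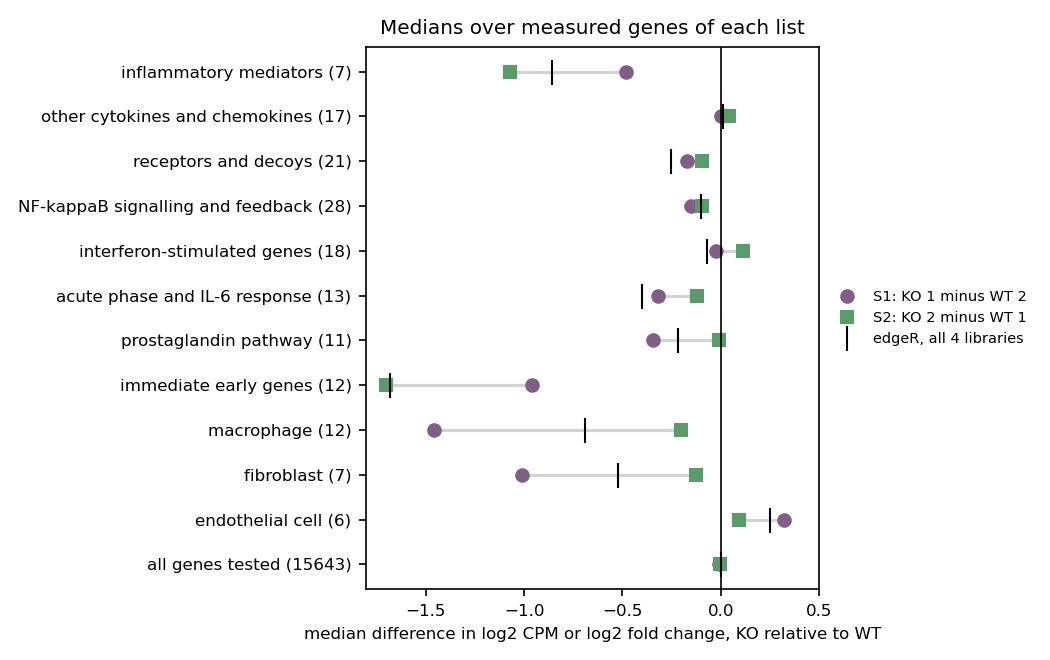
Median difference of KO relative to WT over the tested genes of each list (number in brackets), within S1 (circles), within S2 (squares) and in the edgeR fit of all 4 libraries (black bars). The 7 tested mediators (-0.48 in S1 and -1.07 in S2) and the immediate early genes (-0.96 and -1.70) have the larger difference in S2, the macrophage and fibroblast genes have it in S1, and the NF-kappaB genes lie near 0 in both.

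The levels of other gene groups in the same libraries are given here, and their part in the levels of the mediators was not tested. Immediate early genes, which cells switch on within minutes of a stimulus, lay below WT in both KO libraries for 12 of 12, with a summed level of 155 and 215 CPM in KO 1 and KO 2 and 821 and 375 CPM in WT 1 and WT 2. In edgeR 0 of the 12 passed and 12 had an unadjusted p under 0.05, and with the prefix as a block 9 fell. Zfp36, whose protein binds AU-rich elements in the messages of Tnf and other cytokines and speeds their decay, was at 23.6 and 26.5 CPM in KO 1 and KO 2, against 63.4 and 38.8 CPM in WT 1 and WT 2, and in that fit its log2 change was -0.99 (SE 0.17, edgeR adjusted p = 0.0117). Without the prefix block it was -1.03, and -0.63 once the library labelled WT 1 was left out. The median of the list was -1.69 with all libraries and -0.74 without the library labelled WT 1.

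Macrophage markers, of cells that are a main source of these mediators, had a negative log2 fold change for 12 of 12 and a median of -0.69. Of the 12, 0 were past the threshold and 3 had an unadjusted p under 0.05, against 4.02% of all genes tested (1.50% lower in KO). Their sum over 12 genes was 131 and 358 CPM in KO 1 and KO 2 and 442 and 331 CPM in WT 1 and WT 2, so the genotypes overlapped. The median log2 difference was -1.46 within S1 and -0.20 within S2. Without KO 1 the median of the macrophage markers was -0.14, and without the library labelled WT 1 it was -0.33. Cd68, a lysosomal protein of macrophages, was at 8.08 and 12.6 CPM in KO, against 13.9 and 24.7 CPM in WT (-0.90, SE 0.35, edgeR adjusted p = 0.9999, and -0.43 without WT 2).

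Markers of other cell types were summed in the same way. Fibroblast markers, of cells that also secrete Ccl2 and Ccl7, summed to 348 and 547 CPM in KO 1 and KO 2, against 599 and 840 CPM in WT 1 and WT 2. In the prefix block fit 1 of the 7, the matrix gene Dpt, was called lower (log2 change -0.78, SE 0.17, edgeR adjusted p = 0.0399), against 0.473% of all genes tested. Neutrophil markers summed to 3.87 and 2.71 CPM in KO and 3.06 and 5.09 CPM in WT, and the defining genes Ly6g and Ngp had 0 counts in all 4 libraries. Mesothelial markers summed to at most 1.64 CPM in any library, with Upk3b at 0 in all 4. B cell markers summed to 9.57 and 2.47 CPM in KO and 3.09 and 5.63 CPM in WT. Dendritic cell markers summed to 5.08 and 7.23 CPM in KO and 9.42 and 8.43 CPM in WT, and endothelial markers to 1104 and 647 CPM in KO and 583 and 850 CPM in WT. White adipocyte markers summed to 87.5 and 163 CPM in KO 1 and KO 2, against 389 and 289 CPM in WT 1 and WT 2. In the edgeR test 0 of 6 were called, against 0.780% of all genes tested. In the prefix block fit 4 of 6 were called lower, against 0.473% of genes. The part of these sums in the levels of the mediators was not tested.

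AU-rich elements, the short tracts through which Zfp36 and related proteins mark cytokine messages for decay, were counted in the 3' untranslated region of the most abundant coding transcript of each mediator (GENCODE vM21, sense strand). The pentamer ATTTA was present in 8 of the 10, Ccl5 and Saa3 being the exceptions, against 66.6% of 13682 tested genes with such a region. The nonamer TTATTTATT was in 3 of the 10, namely Tnf (5 copies, overlaps counted), Cxcl1 (2) and Ptgs2 (1), against 7.38% of those genes. The sets are unlike, since the 10 include Tnf, Il6 and Ptgs2, which were below the filter. Of the 3 with the nonamer, Cxcl1 alone was tested. The first nonamer of each is shown in capitals with 10 bases on either side, on GRCm38 at chr17:35199689-35199717 (minus strand) for Tnf, chr5:90892615-90892643 (plus strand) for Cxcl1 and chr1:150105790-150105818 (plus strand) for Ptgs2.
Tnf: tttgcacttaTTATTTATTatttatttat
Cxcl1: atttatgtatTTATTTATTccacaaagtg
Ptgs2: ctgaccatatTTATTTATTtatgtgaaga

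Per kilobase the pentamer count was 13.75 for Il6, 11.8 for Cxcl1, 10.5 for Tnf, 8.71 for Il1b, 5.73 for Ptgs2, 4.60 for Ccl7, 3.64 for Ccl2 and 2.74 for Cxcl10, against a median of 1.19 over the tested genes. The value of Il6 rests on a region of 291 bases in a transcript (ENSMUST00000199765) that was chosen on 3 counts in KO 1 alone.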

How the data were processed

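TRIzol extraction, an RNeasy clean-up and strand-keeping TruSeq mRNA libraries are given per the labels' protocols. The tool was kallisto 0.45.0 and the build mm10, per the submitters' processing notes. No source used here names the transcript set or strand setting. The authors deposited, per the file headers, an estimated count and a TPM value for each of 141450 transcripts per library, with transcript lengths. Of the transcripts, 138191 (97.7%) matched GENCODE vM21 by identifier. The others, holding 0.992 to 1.04% of counts, were left out.

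Gene values are sums of the estimated counts of their transcripts, rounded to whole numbers. The test was the edgeR 4.0.16 quasi-likelihood test (R 4.3.3) with TMM scaling and genotype as the sole term, on 15643 genes left after filterByExpr (at least 10 counts, a total of at least 15, about 0.320 CPM in 2 libraries). Cxcl1 was over the cutoff in both WT libraries but in 1 KO library only. Adjusted p-values are Benjamini-Hochberg over all genes tested, with a threshold of 0.05, and SEs come from the change and its F statistic. Differences within a prefix use log2 CPM with a prior count of 2, and ratios of counts have exact 95% (Clopper-Pearson) intervals. The block fit leaves 1 residual degree of freedom, so its p-values rest largely on spread pooled over genes.

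Alternatives were DESeq2 size factors, no filter, the replicate number or the prefix as a block, each library left out, DESeq2 1.42.0, limma-voom and limma 3.58.1 on log2(TPM + 1) and log2(TPM + 0.1). The mediators and lists were chosen with earlier results of these data known. The mediators were named in any case, and from other lists up to 4 genes with the smallest p and those called in either fit. Ccl19 matched 2 genes and was left out. Scripts were tested on simulated counts. The motifs searched also included the cyclic AMP response element TGACGTCA (0 of the 7 windows) and the TATA box TATAAA (2 of the 7).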

Additional observations from a re-analysis of the deposited data

How the results depend on the processing

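With 2 libraries a genotype and at most 160 counts for a mediator, only large differences could pass. In all 12 alternatives 0 mediators were called, and 6 of the 7 tested kept their direction in each. Cxcl10 turned to -0.0028 on log2(TPM + 1) and -0.0023 on log2(TPM + 0.1), where the median of all genes moved to -0.07 and -0.11. The difference of Cxcl1 within S2 was -0.78 on log2(TPM + 1), against -2.40 in log2 CPM, since a pseudocount of 1 exceeds its KO level. With 1 library left out, Ccl11 ranged from -0.30 to 0.0615 and Rsad2, an interferon-stimulated gene, from -0.10 to 0.79. The count of called genes was 122 in the main test, 457 without a filter, 320 with the prefix as a block, 168 with the replicate number as a block, 218 with DESeq2, and 78 to 205 with 1 library left out. Without a filter the lists held 1 call among other cytokines and chemokines, 1 among acute phase genes, 11 among immediate early genes, 3 among macrophage, 1 among mast cell, 1 among fibroblast, 1 among brown adipocyte and 4 among white adipocyte markers. With the prefix as a block these were 9 immediate early genes, 1 mast cell, 1 fibroblast, 1 brown adipocyte and 4 white adipocyte markers, and with DESeq2 they were 1 acute phase gene, 2 immediate early genes, 1 mast cell and 2 white adipocyte markers. With 1 library left out calls ranged from 0 to 1 among acute phase genes, 0 to 8 among immediate early genes, 0 to 1 among macrophage, 0 to 1 among brown adipocyte and 0 to 2 among white adipocyte markers. The correlation of deviations across genes was -0.38 when paired by replicate number and 0.38 when crossed. With 2 libraries a genotype these 2 values differ only in sign by construction, so they cannot settle whether replicate numbers pair the libraries. The replicate block called 1 acute phase gene, Serpina3n. The crossed pairing is the prefix block, with 320 calls. The cause of these differences was not tested.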

Other observations

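Among the markers of cells that could make the mediators, the mast cell list (summed level 7.57 and 11.4 CPM in KO, 18.0 and 16.7 CPM in WT) held 1 gene that passed in a fit. Kit, the stem cell factor receptor, which mast cells carry together with some other cells, was at 4.88 and 6.92 CPM in KO 1 and KO 2, against 15.03 and 13.0 CPM in WT 1 and WT 2, with no overlap. Its log2 fold change was -1.24 (SE 0.23, edgeR adjusted p = 0.177), and ranged from -1.52 to -1.02 with 1 library left out. Kit passed with the prefix as a block (fell by 1.26, SE 0.18, edgeR adjusted p = 0.00259), a fit in which 0.473% of all genes tested were called lower. The mast cell protease Cpa3 was at 1.21 and 1.16 CPM in KO 1 and KO 2, against 1.05 and 1.14 CPM in WT 1 and WT 2. Kit made up most of the sum of the list. Of the 5 tested genes 2 had a negative log2 fold change, and the protease Cma1 was at 0.859 and 1.06 CPM in KO 1 and KO 2, against 0.573 and 0.762 CPM in WT 1 and WT 2 (0.52, SE 0.41, edgeR adjusted p = 0.9999). Fcer1a, a subunit of the IgE receptor, had 1 and 3 counts in KO 1 and KO 2 and 0 counts in both WT libraries. These genes were described after their values were seen.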
